A study of Homo sapiens with 9 samples.

Results

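Interactions of the MTAP promoter with the chromatin around it were described from Capture-C, an assay in which DNA fragments that lay close together in the nucleus are ligated and the ligation products of a chosen fragment, the viewpoint, are enriched with probes and counted. The region taken was all sequence within 750 kb of the MTAP transcription start on chromosome 9 (hg38, chr9:21052636-22552635). It held 3172 of the 296390 DpnII fragments listed for this viewpoint, and MTAP was 1 of 20 viewpoints. Values came from 9 libraries. The cells were HCT-116 MED14-dTAG, a line derived from the human colorectal carcinoma line HCT-116 in which the Mediator subunit MED14 carries a degradation tag. Cells of every library, controls included, carry this tag. The 3 DMSO libraries came from cells given the solvent. The 3 dTAG libraries came from cells given 0.5 µM dTAG ligand for 2 h, a compound that directs the tagged MED14 to degradation. The 3 dTAG+I-BET libraries came from cells given the same ligand with 1 µM of the BET bromodomain inhibitor I-BET 151 for 90 min. I-BET was never given without dTAG ligand, so that its comparison with dTAG measures the addition of the inhibitor to cells already treated with the ligand. The engineered line limits the comparison to acute loss of a tagged protein in 1 cell line.

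MTAP encodes methylthioadenosine phosphorylase, an enzyme of the methionine salvage pathway. The gene lies between the cluster of type I interferon genes, which encode secreted antiviral cytokines, and CDKN2A and CDKN2B, which encode inhibitors of cyclin-dependent kinases and are often deleted together with MTAP in tumours. Mediator is a large complex that links transcription factors bound at enhancers to RNA polymerase II at promoters. BET proteins bind acetylated histones at active enhancers and promoters. Cohesin, of which SMC1A is a subunit, extrudes loops of chromatin that often stop at bound CTCF.

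The region was divided into 7 segments from the annotation (GENCODE 44) and from the sites with changed SMC1A binding that the study lists. From upstream to downstream these were the interferon cluster from IFNB1 to IFNE (chr9:21077104-21482313), the MIR31HG segment up to the first cluster of SMC1A sites (chr9:21482314-21554610), a distal cluster of 5 sites at which SMC1A was lost (chr9:21554611-21621493), a proximal cluster of 2 such sites (chr9:21672855-21697794), the MTAP gene body beyond the first 10 kb (chr9:21812636-21937651), CDKN2A-CDKN2B (chr9:21967752-22009305), and the interval from CDKN2B to DMRTA1 (chr9:22009306-22446823). The clusters include 5 kb beyond their outermost sites. The MIR31HG segment holds only a part of MIR31HG, whose annotated body (chr9:21380073-21559891) also runs into the interferon cluster.

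Sequences of the places on which the results turn are given first, 5′ to 3′ (build hg38, promoters from RefSeq on GRCh38.p14). Of the 54 annotated genes in the region, 20 had a RefSeq promoter entry. The 250 bases before the MTAP start (chr9:21802386-21802635, plus strand) are shown because interactions were captured from this promoter. Capitals mark GATC, the site that DpnII cuts. This run holds 1 such site, and 35.8% of 35116 promoters hold it within the same length.

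MTAP promoter: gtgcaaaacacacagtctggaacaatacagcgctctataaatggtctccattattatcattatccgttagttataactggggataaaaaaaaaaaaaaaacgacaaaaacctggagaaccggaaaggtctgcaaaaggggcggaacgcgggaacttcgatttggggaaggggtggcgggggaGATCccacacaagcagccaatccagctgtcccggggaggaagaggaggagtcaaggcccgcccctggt

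Places at the other end of interactions that were lower after treatment are shown by 2 sequences. The first, at the 1 bin that was lower in dTAG+I-BET against DMSO, is the promoter of MIR31HG, the host gene of the microRNA miR-31 (chr9:21559799-21560048, minus strand), which overlaps an SMC1A site. The second, in the 1 bin that fell in dTAG against DMSO, is the centre of the SMC1A site nearest the promoter within the distal cluster (chr9:21616144-21616443, plus strand). Capitals mark CG dinucleotides. The MIR31HG promoter holds 34 of them and 78.0% G or C, and 6.84% of promoters hold at least as many. The distal site holds 3 of them, and 42.0% of 300-base tiles of chromosome 9 hold at least as many.

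MIR31HG promoter: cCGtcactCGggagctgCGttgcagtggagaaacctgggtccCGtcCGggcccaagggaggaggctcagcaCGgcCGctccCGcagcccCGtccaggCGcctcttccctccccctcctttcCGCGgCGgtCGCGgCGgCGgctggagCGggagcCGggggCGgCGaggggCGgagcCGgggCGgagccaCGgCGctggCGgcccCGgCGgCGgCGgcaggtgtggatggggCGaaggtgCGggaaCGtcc

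distal SMC1A site: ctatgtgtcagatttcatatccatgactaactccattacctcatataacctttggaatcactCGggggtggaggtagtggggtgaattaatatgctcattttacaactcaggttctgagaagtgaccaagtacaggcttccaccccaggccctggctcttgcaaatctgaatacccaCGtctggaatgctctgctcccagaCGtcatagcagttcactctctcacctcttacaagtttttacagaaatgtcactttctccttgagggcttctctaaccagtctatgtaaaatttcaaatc

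The promoters of IFNA4 (chr9:21187588-21187837, minus strand) and IFNA17 (chr9:21228223-21228472, minus strand) belong to the windows with the largest increases. Capitals mark the longest run that both share, which is 37 bases. Over the 55 pairs of the 11 IFNA promoters with an entry, the longest shared run was 11 to 122 bases with a median of 16, the longest being that of IFNA7 and IFNA10. Values of single interferon genes are uncertain where alignment could not tell near-identical copies apart, which was not tested.

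IFNA4 promoter: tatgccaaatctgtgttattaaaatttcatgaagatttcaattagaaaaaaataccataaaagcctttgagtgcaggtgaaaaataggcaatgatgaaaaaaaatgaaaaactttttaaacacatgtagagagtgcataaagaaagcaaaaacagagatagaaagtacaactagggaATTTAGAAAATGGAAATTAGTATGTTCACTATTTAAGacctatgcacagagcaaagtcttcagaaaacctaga

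IFNA17 promoter: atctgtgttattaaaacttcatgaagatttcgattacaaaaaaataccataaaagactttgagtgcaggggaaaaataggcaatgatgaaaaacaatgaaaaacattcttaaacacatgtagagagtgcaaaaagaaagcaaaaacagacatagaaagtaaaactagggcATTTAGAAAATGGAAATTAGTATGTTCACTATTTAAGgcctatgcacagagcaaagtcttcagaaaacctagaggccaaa

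A core common in CTCF-binding sites, CC followed by any 3 bases and AGGGGGC, was searched on both strands and occurred 4 times in the region. They occurred in 5.37% of 10-kb tiles of chromosome 9. The matches are shown in capitals with 9 bases on each side, because their strands and places describe the region's sequence. They lie within MIR31HG in the interferon cluster (chr9:21401640-21401651, plus strand), in the pseudogene KHSRPP1 at the edge of the proximal cluster (chr9:21696181-21696192, minus strand), in CDKN2B (chr9:22008763-22008774, minus strand) and in DMRTA1 (chr9:22455511-22455522, minus strand). None of the 11 SMC1A sites of the region holds this core within its own 401 bases, and 0.229% of 400-base tiles of chromosome 9 hold it. At that share, its absence from 11 sites does not set them apart.

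match in MIR31HG: ttccattggCCAAAAGGGGGCatgttcagc

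match in KHSRPP1: gtcatctccCCGCCAGGGGGCcgccagttg

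match in CDKN2B: agggcctcgCCGGCAGGGGGCgcgcgaacg

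match in DMRTA1: gagagactgCCACGAGGGGGCaaagataat

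Signal here means interactions per fragment as scaled by the authors, and it is given per kb. This scaling brought the signal on chromosome 9 near 1 common total in the MTAP libraries, from 951234 to 957334. At MTAP a library held 12018 to 23737 interactions within chromosome 9, against 10698 to 60241 over all viewpoints, and these numbers limit the precision. Interactions with other chromosomes made up 40.3% to 41.6% of all MTAP interactions in DMSO, 33.6% to 38.7% in dTAG and 34.0% to 35.6% in dTAG+I-BET. Of the signal on chromosome 9, 63.3% to 64.9% lay within 750 kb in DMSO, 72.2% to 73.6% in dTAG+I-BET, and 72.4%, 73.1% and 59.4% in dTAG replicates 1, 2 and 3. dTAG replicate 3 thus stood apart from its group, and DMSO replicate 3 had the lowest signal of its group in the proximal cluster and the highest in the interferon cluster. Results of segments that rest on either library are given with and without it, except for values relative to the other viewpoints. The part of the smaller share on other chromosomes in the results below was not tested.

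In DMSO, the MTAP promoter interacted more with upstream than with downstream sequence. From 10 to 750 kb, 61.0% to 67.5% of the signal was upstream in DMSO, 59.2% to 61.2% in dTAG and 59.4% to 60.7% in dTAG+I-BET. DMSO and dTAG overlapped at 1 library, and the exact two-sided permutation p was 0.2 for dTAG and 0.1 for dTAG+I-BET against DMSO, where 0.1 is the smallest that 3 against 3 allows. Beyond 50 kb, the DMSO maximum was the 10-kb bin chr9:21692636-21702635, which lies partly in the proximal cluster, at 1015 ± 341 per kb (SD, n = 3), followed by chr9:21582636-21592635 in the distal cluster, at 995 ± 82.9. These bins lie within their spread of each other. Both bins lie within the stretch that holds the SMC1A sites.

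Compared with the other promoters in DMSO, MTAP ranked the 4th highest of 20 in each of the bands 100 to 250, 250 to 500 and 500 to 750 kb upstream. It ranked the lowest of 20 from 50 to 100 kb downstream, within its own gene body, at 286 per kb against a median of 542 for the others. The signal near the downstream end of the region was low. From 700 to 750 kb downstream the mean was 20.2 per kb in DMSO, 22.3 in dTAG and 20.3 in dTAG+I-BET.

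**Figure D1:**
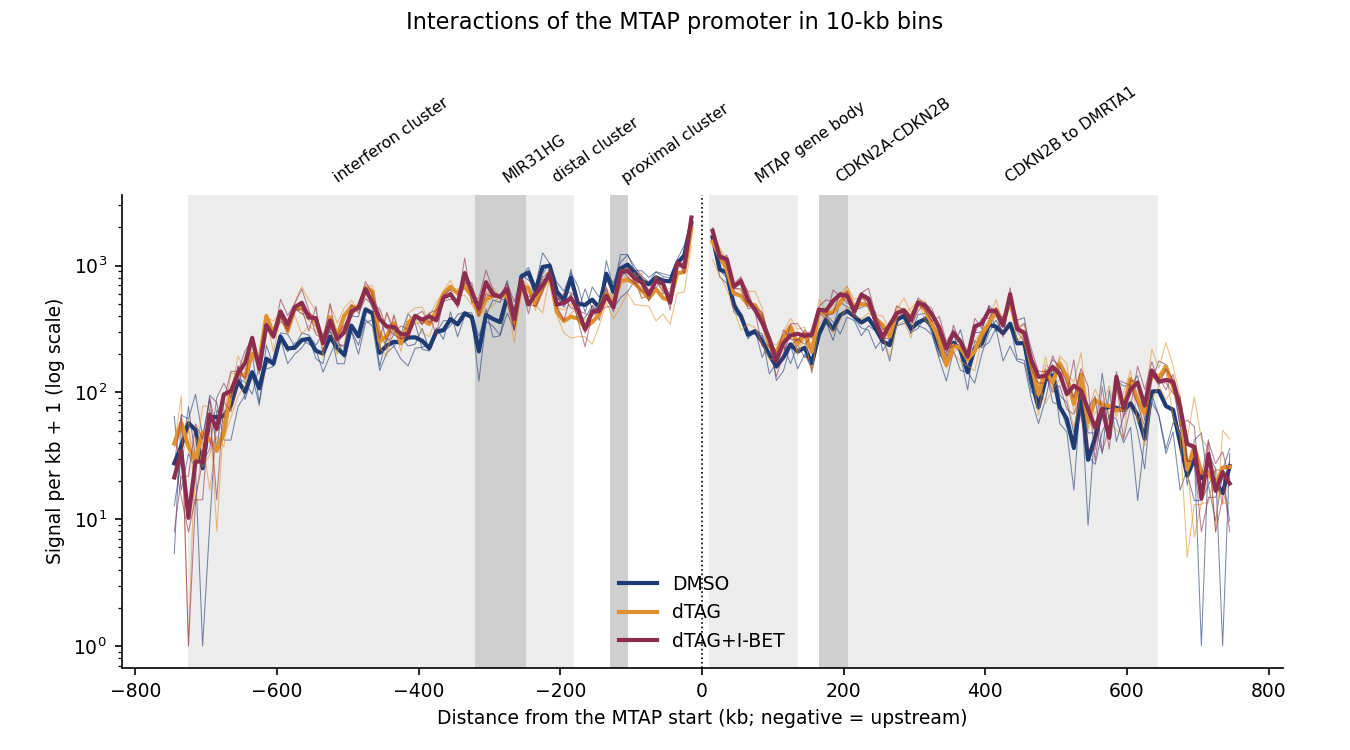
Signal per kb plus 1 on a log axis in 10-kb bins against the distance from the MTAP start in kb. Thin lines are the 9 libraries and thick lines the group means, and grey bands mark the 7 segments. The DMSO line lies below the others over most of the interferon cluster and above them over most of the distal cluster.

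In dTAG against DMSO, interactions of the MTAP promoter with the interferon cluster rose and those with the distal cluster of SMC1A sites fell. In the interferon cluster the signal was 211, 209 and 254 per kb in DMSO and 336, 326 and 357 per kb in dTAG, so that all dTAG libraries lay above all DMSO libraries. The difference was 0.60 ± 0.09 on the log2 scale (SE; 95% interval 0.39 to 0.81; limma, adjusted p = 0.0057), which is 1.52-fold. In the distal cluster the signal was 726, 867 and 681 per kb in DMSO and 553, 586 and 464 per kb in dTAG, again without overlap. The difference was -0.50 ± 0.12 (-0.78 to -0.23; adjusted p = 0.0435). Of all segments and bands tested at all viewpoints, 5.80% were called in this comparison, and at MTAP 4 of 17 were (3 higher and 1 lower, where all viewpoints gave 3.38% and 2.42%). Besides these segments, the calls at MTAP were the bands 250 to 500 kb and 500 to 750 kb upstream, which cover the interferon cluster again. The 17 hold 7 segments defined at MTAP alone, while each other viewpoint gave 10 bands. On bands alone, 2 of 10 were called at MTAP and 8 of 190 at the other viewpoints.

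The call of the interferon cluster was kept without dTAG replicate 3 (0.56, adjusted p = 0.0023) and without DMSO replicate 3 (0.69, adjusted p = 0.0011). It was lost in a fit of only these groups. The call of the distal cluster was less stable. It was kept without dTAG replicate 3 (-0.41, adjusted p = 0.026) and without DMSO replicate 3 (-0.58, adjusted p = 0.027), but lost when any of the other 7 libraries was left out, with log2 differences of -0.57 to -0.40.

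The ratio of interferon cluster to distal cluster within a library does not depend on the scaling of that library. It was 0.290, 0.241 and 0.373 in DMSO, 0.608, 0.557 and 0.768 in dTAG, and 0.552, 0.635 and 0.540 in dTAG+I-BET. No treated library reached the range of the DMSO libraries. This pair of segments was chosen after their values were seen, and the ratio is given with no test.

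Of the other segments, none passed the test in dTAG against DMSO. The MIR31HG segment had 415, 419 and 552 per kb in DMSO and 561, 580 and 489 in dTAG (0.24, 95% interval -0.03 to 0.52). The proximal cluster had 1095, 1037 and 557 in DMSO and 769, 784 and 500 in dTAG (-0.36, -0.92 to 0.20), where the third DMSO library lay among the dTAG libraries. The MTAP gene body had 549, 467 and 444 in DMSO and 682, 658 and 420 in dTAG (0.24, -0.14 to 0.62), where the third dTAG library was the lowest of all.

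CDKN2A-CDKN2B, the locus of the cell cycle inhibitors, had 335, 354 and 403 per kb in DMSO and 562, 542 and 381 in dTAG. The first and second dTAG libraries lay above all DMSO libraries and the third did not, and the difference was 0.42 ± 0.15 (0.10 to 0.75; limma, adjusted p = 0.12). Without dTAG replicate 3 it was 0.60 and passed the test (adjusted p = 0.0022), as did the MTAP gene body (0.47, adjusted p = 0.0066). The interval from CDKN2B to DMRTA1 had 182, 178 and 252 in DMSO and 261, 256 and 236 in dTAG (0.31, adjusted p = 0.19), and it passed the test without DMSO replicate 3 (0.47, adjusted p = 0.0072). The MIR31HG segment also passed without that library (0.38, adjusted p = 0.046).

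**Figure D2:**
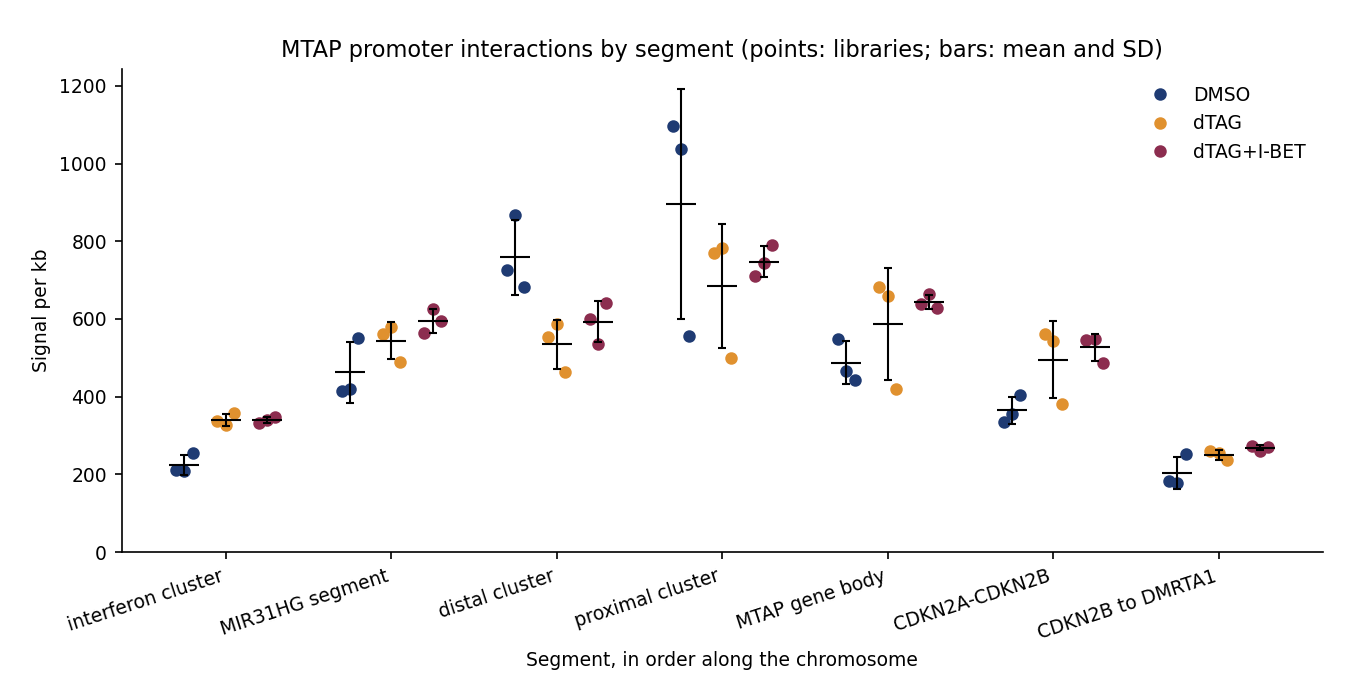
Signal per kb by segment, from upstream to downstream, for the 3 groups. Points are libraries and bars the mean and SD of 3. In the interferon cluster all 6 treated libraries lie above the 3 DMSO libraries, and in the distal cluster all 6 lie below them.

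Of 148 10-kb bins at MTAP, 8 rose and 1 fell in dTAG against DMSO. Over all viewpoints 1.08% of 2960 bins were called, 0.845% higher and 0.236% lower, and at the other viewpoints 23 of 2812 bins. edgeR on recovered interactions called 14 MTAP bins, against 2.06% of all bins. The median log2 difference of the MTAP bins was 0.37, against -0.04 over all bins. Rescaling each library to the same total between 10 and 750 kb lowered this median to 0.24 and changed the balance of calls to 10 higher and 10 lower, which included all 9 bins named above. On that scale, 5 of the 10 lower bins lay in the distal cluster and the others between it and the promoter.

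All 24 bins from the distal cluster to the promoter had a log2 difference below 0, with a median of -0.38, and 42 of the 50 bins further upstream had one above 0, with a median of 0.55. Downstream, 66 of 74 bins were above 0, with a median of 0.37. Of the 8 bins that rose, 7 lay between the start of the region and the distal cluster, and 1 lay downstream.

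The largest increases among called bins were chr9:22302636-22312635, in the interval before DMRTA1, and chr9:21182636-21192635, which holds IFNA4. The first had 55.8, 78.1 and 93.8 per kb in DMSO and 192, 185 and 126 in dTAG (1.14 ± 0.25; limma, adjusted p = 0.020). It rested on 7 to 46 interactions a library. Leaving out DMSO replicate 1, DMSO replicate 2, dTAG replicate 1 or dTAG replicate 2 ended the call, as did the comparison with the other viewpoints. For bins, that comparison subtracted the mean of the other viewpoints at the same distance on both sides. The second had 151, 234 and 164 in DMSO and 416, 385 and 392 in dTAG (1.14 ± 0.18; adjusted p = 0.0013). Its call was kept in all alternatives run for single bins. Nearly the same bases were also tested as the IFNA4 promoter window, whose call was lost in 8 of 17 alternatives. The 1 bin that fell was chr9:21612636-21622635, with 932, 872 and 592 in DMSO and 416, 498 and 266 in dTAG (-1.04 ± 0.21; adjusted p = 0.013). It holds the distal SMC1A site printed above, and its call ended without DMSO replicate 1, without DMSO replicate 2 and relative to the other viewpoints.

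**Figure D3:**
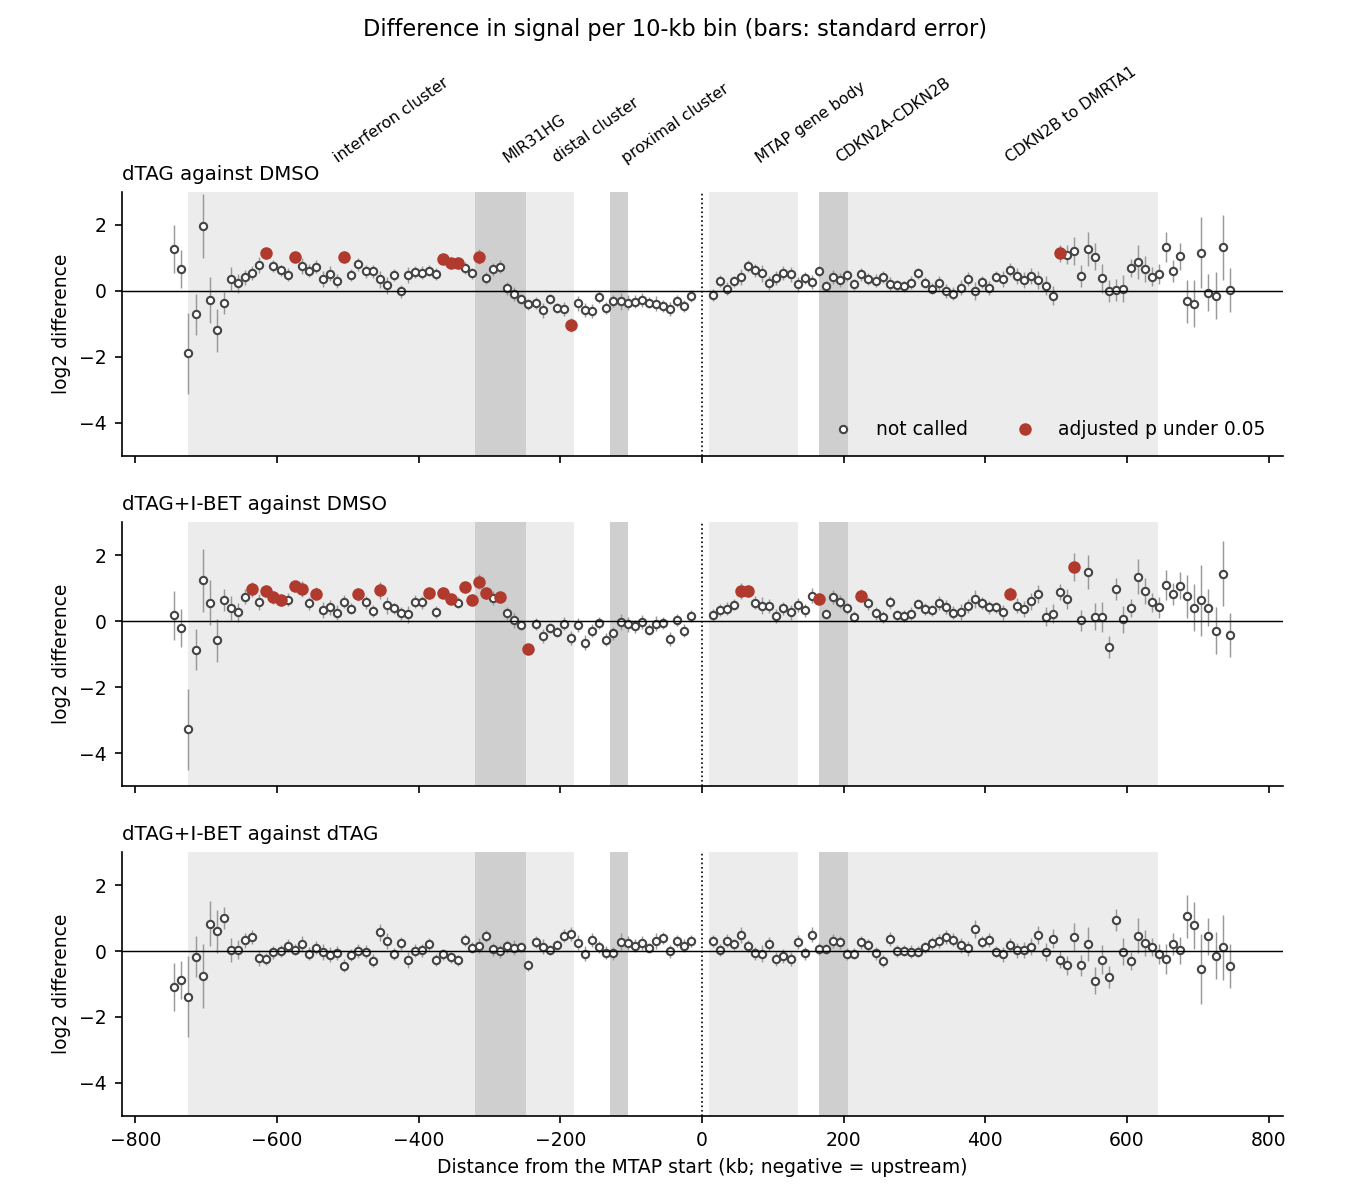
Log2 difference in signal for each 10-kb bin, with standard errors, against the distance from the MTAP start in kb, for the 3 comparisons. Filled red points passed the test, and grey bands mark the segments. Called increases gather in and next to the interferon cluster, the called decreases lie at the distal cluster, and no bin is called in the lowest panel.

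Single SMC1A sites were then described, and differences between sites were not tested. Windows reached 5 kb beyond each site, so that neighbouring windows can share fragments. Of 11 windows at MTAP, 1 rose and 3 fell in dTAG against DMSO. Of 177 windows over all viewpoints, 14.7% were called, 1.13% higher and 13.6% lower. The window of the site chr9:21616093-21616493 had 927, 793 and 541 per kb in DMSO and 376, 490 and 303 in dTAG, with no overlap (-0.94 ± 0.20; limma, adjusted p = 0.0087). The window of the site chr9:21611899-21612299 overlaps it and had 789, 730 and 411 in DMSO and 257, 409 and 276 in dTAG (-1.01 ± 0.23; adjusted p = 0.011). The call of either was lost without DMSO replicate 1.

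The third window that fell was that of the site chr9:21559611-21560011, at the MIR31HG promoter, with 597, 763 and 580 per kb in DMSO and 424, 509 and 458 in dTAG (-0.47 ± 0.15; adjusted p = 0.043). Its call was lost when any library other than DMSO replicate 3, dTAG replicate 2 or dTAG replicate 3 was left out. The remaining sites of the distal cluster, chr9:21570723-21571123 and chr9:21589390-21589790, had log2 differences of -0.43 and -0.29 and did not pass. Neither did the sites of the proximal cluster, at -0.30 and -0.34, or the single lost site 24.7 kb from the start, at -0.41. All 8 sites at which SMC1A was lost were thus below 0 and 3 of them passed the test. These 8 sites lie in the stretch from the distal cluster to the promoter, where all 24 bins were below 0. The median over the SMC1A windows of all viewpoints was -0.18.

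Of the 3 sites at which SMC1A was gained, chr9:21413723-21414123 in the interferon cluster had 276, 209 and 175 per kb in DMSO and 394, 390 and 337 in dTAG, with no overlap (0.79 ± 0.18; limma, adjusted p = 0.010). The other gained site there, chr9:21392248-21392648, had 214, 204 and 383 in DMSO and 269, 336 and 391 in dTAG (0.35 ± 0.22; adjusted p = 0.35). The third, chr9:21812865-21813265 in the MTAP gene, had a log2 difference of -0.04 ± 0.18. Its window begins at chr9:21807865, within 10 kb of the MTAP start, and so includes signal next to the viewpoint. Windows of 2.5 kb around the sites left 1 call in place of 4.

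The single DpnII fragment with the largest fall in mean signal between 10 and 750 kb was chr9:21615494-21616546, which covers the printed distal site. It held 19, 23 and 7 interactions in DMSO, 1, 4 and 2 in dTAG, and 1, 11 and 9 in dTAG+I-BET. The largest rise was chr9:21512400-21513766, next to MIR31, the gene of miR-31, with 1, 1 and 7 in DMSO, 9, 11 and 18 in dTAG, and 11, 17 and 11 in dTAG+I-BET. These fragments were picked by their values and are a description, with no test.

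Windows of 5 kb on each side of a start were then compared for the 28 neighbouring genes. Of the 16 type I interferon genes, 4 rose in dTAG against DMSO, none fell and 12 did not pass, while 1.05% of 478 windows over all viewpoints were called. The median over the 16 was 0.63, against -0.04 over all windows. IFNA4 had 151, 234 and 164 per kb in DMSO and 416, 385 and 392 in dTAG (1.14 ± 0.18; limma, adjusted p = 0.016), and IFNA17 had 239, 256 and 258 against 497, 437 and 561 (0.98 ± 0.15; adjusted p = 0.016). These genes encode secreted interferon alpha subtypes. The IFNA4 window covers nearly the same bases as the called bin chr9:21182636-21192635, so that it is no separate result.

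The window of IFNA1, another alpha interferon gene, had 406, 312 and 316 per kb in DMSO and 602, 630 and 694 in dTAG (0.90 ± 0.15; limma, adjusted p = 0.019). IFNE, which encodes the interferon made constitutively by epithelia of the reproductive tract, had 271, 273 and 305 in DMSO and 559, 486 and 476 in dTAG (0.84 ± 0.13; adjusted p = 0.016). In each of these 4 windows the groups did not overlap. That was so, with dTAG higher, in 8 of the 16 windows, and in 7.74% of all 478. The 4 calls were all lost in a fit of only these groups, with the replicate number as a block, after rescaling, with windows of 2.5 kb, and without dTAG replicate 1, while 7 windows were called without DMSO replicate 3.

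IFNB1, the gene of interferon beta at the far end of the cluster, was the 1 interferon window with a fitted difference below 0. It held 4, 14 and 13 interactions in DMSO, 0, 14 and 7 in dTAG, and 0, 1 and 3 in dTAG+I-BET, too few for a fold to be given. The neighbouring IFNW1 had a log2 difference of 0.23 ± 0.34.

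No window of the cell cycle inhibitor locus passed the test in dTAG against DMSO. CDKN2B had 406, 395 and 434 per kb in DMSO and 695, 670 and 469 in dTAG, so that the groups did not overlap (0.55 ± 0.18; limma, adjusted p = 0.20). CDKN2A had 382, 447 and 545 in DMSO and 695, 606 and 399 in dTAG (0.28 ± 0.22; adjusted p = 0.60). Its window lies at the outermost start of the gene, and that of the antisense gene CDKN2B-AS1, at 0.31 ± 0.21, shares most of its fragments.

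Of the 9 other neighbours none passed the test. KLHL9, an adaptor of a ubiquitin ligase inside the interferon cluster, had 374, 273 and 574 in DMSO and 658, 586 and 624 in dTAG (0.68 ± 0.27). MIR31 had 239, 291 and 486 in DMSO and 596, 610 and 575 in dTAG (0.87 ± 0.24; limma, adjusted p = 0.17). MIR31HG, whose promoter lies at an SMC1A site, had 526, 677 and 568 in DMSO and 372, 474 and 420 in dTAG (-0.48 ± 0.17; adjusted p = 0.26 among promoter windows). MIR31HG is transcribed towards and into the interferon cluster, so that MIR31 and some interferon genes lie in its body. The values at its start and at MIR31 lay on opposite sides of 0.

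**Figure D4:**
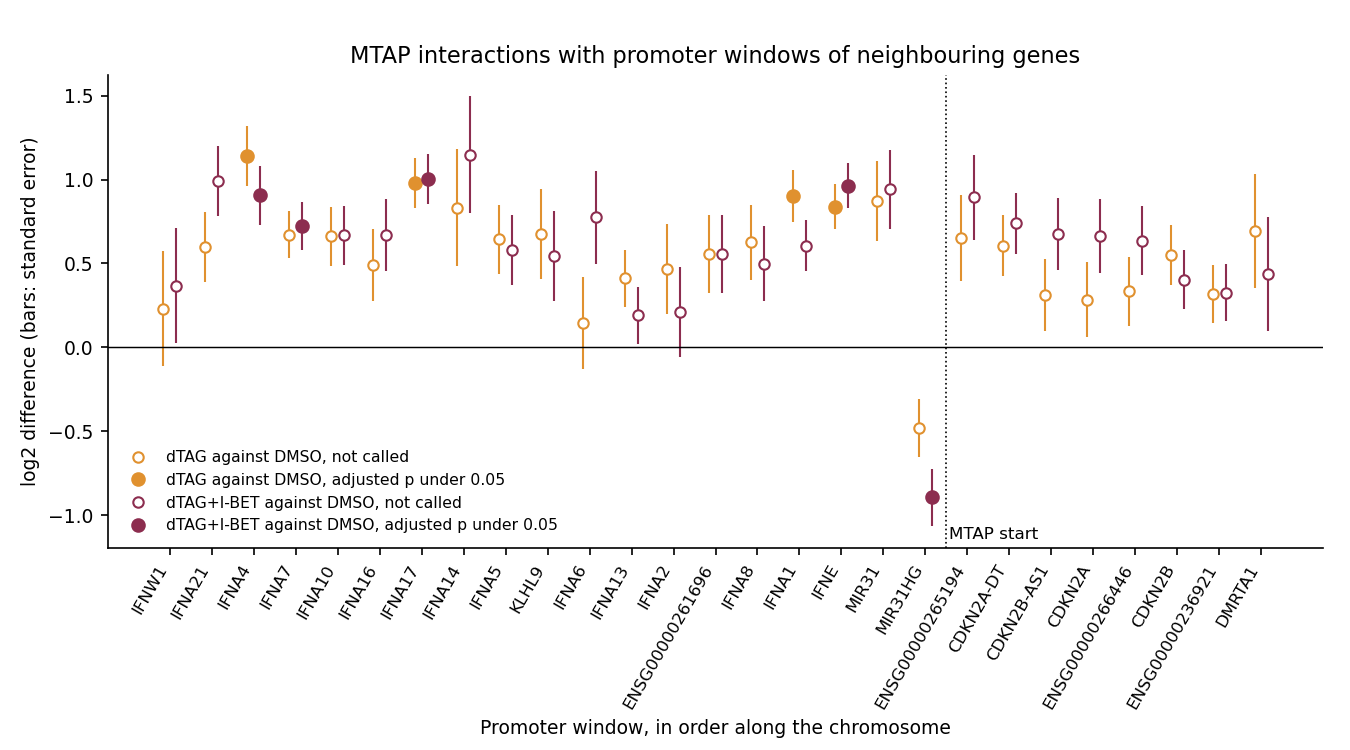
Log2 difference in signal, with standard errors, in windows around the starts of 27 neighbouring genes in chromosome order, for dTAG and dTAG+I-BET against DMSO. Filled points passed the test, and IFNB1 is left out for its low counts. MIR31HG is the 1 window below 0, in both comparisons.

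MTAP differed from the other viewpoints in where interactions rose. The change at MTAP was set against the mean change of the other 19 viewpoints in the same band of distance, on the same side with respect to the direction of the gene. The p-values of this limma test measure spread between libraries and not between viewpoints. In dTAG against DMSO its calls arose at 9 of the 20 viewpoints, MTAP included. Relative to them, MTAP rose by 0.64 ± 0.10 on the log2 scale from 250 to 500 kb upstream (limma, adjusted p = 0.0016) and by 0.64 ± 0.07 from 500 to 750 kb upstream (adjusted p = 5.0e-04). In these bands MTAP had the highest of the 20 log2 differences, at 0.49 and 0.59 before the comparison, where the others ranged from -0.64 (MYC) to 0.12 (KRT19) and from -0.34 (MYC) to 0.16 (KRR1).

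Downstream, the relative differences of 0.43 ± 0.11 from 50 to 100 kb (limma, adjusted p = 0.028) and of 0.32 ± 0.07 from 100 to 250 kb (adjusted p = 0.012) also passed the test. From 50 to 100 kb the relative values were -0.97, -1.05 and -0.86 in DMSO and -0.28, -0.54 and -0.79 in dTAG, so that dTAG replicate 3 lay near DMSO. In these 2 downstream bands the HMGA2 viewpoint had the highest log2 differences, at 1.00 and 0.90, and MTAP 0.53 and 0.37. From 100 to 250 kb upstream, where both clusters lie, the difference relative to the others was -0.25 ± 0.08 and did not pass (adjusted p = 0.083). The other viewpoints had a median of -0.18 there and MTAP -0.45. Of 17 bands and segments at MTAP, 9 passed the relative test, against 12.6% of 207 over all viewpoints. On bands alone it was 4 of 10 at MTAP and 17 of 190 at the others. With dTAG+I-BET against DMSO 11 of 17 passed, against 25.6% of 207.

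By segment, with windows at the same distance and side at the other viewpoints, the interferon cluster (0.60), CDKN2A-CDKN2B (0.54), the MIR31HG segment (0.33) and the MTAP gene body (0.30) passed as relative increases and the distal cluster (-0.41) as a relative decrease in dTAG against DMSO. For CDKN2A-CDKN2B the values relative to the other viewpoints were -0.08, 0.04 and 0.29 in DMSO and 0.74, 0.67 and 0.46 in dTAG, so that the groups did not overlap on this scale. The relative count of bands was 2 without DMSO replicate 1 and 8 without DMSO replicate 3, in place of 4.

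Over the 10 bands, the log2 differences of DDIT4 (Pearson r = 0.84), HS3ST1 (0.77) and KRR1 (0.73) correlated most with those of MTAP. Pearson r takes no account of the size of the differences or of a shift common to all bands. From 250 to 500 kb upstream these viewpoints had -0.03, -0.17 and -0.25, against 0.49 at MTAP. From 500 to 750 kb upstream they had 0.10, 0.03 and 0.16, against 0.59. The correlations are descriptions over 10 bands. The points share their libraries, and no p is given.

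**Figure D5:**
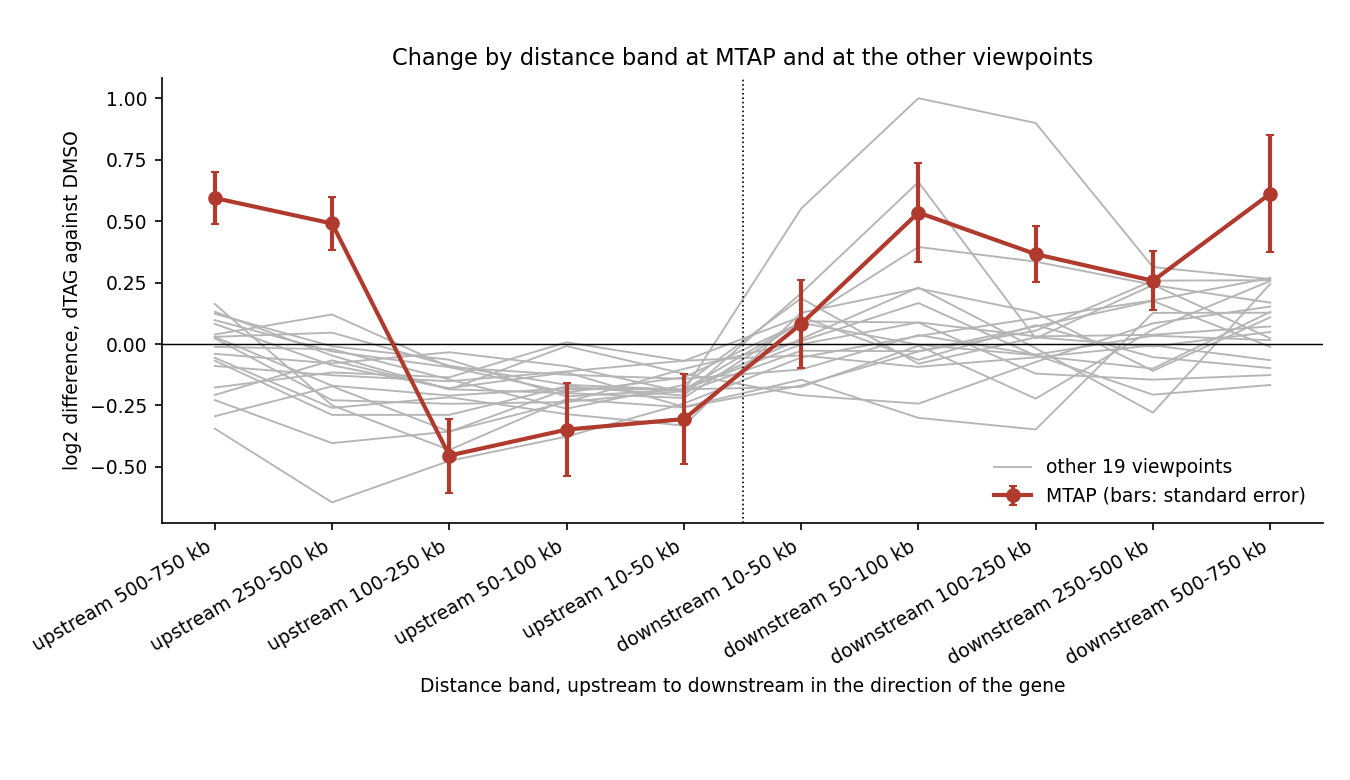
Log2 difference of dTAG against DMSO in 10 bands of distance, from upstream to downstream in the direction of the gene, for MTAP (red, with standard errors) and the other 19 viewpoints (grey). MTAP lies above all others in both outermost upstream bands, at 0.59 and 0.49, and at -0.45 in the band from 100 to 250 kb upstream.

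The addition of I-BET to the dTAG ligand gave no call at MTAP. None of 148 bins, 17 segments and bands, 28 promoter windows or 11 SMC1A windows passed in dTAG+I-BET against dTAG by limma, as at all other viewpoints (0% of 2960 bins). At an unadjusted limma p under 0.05 there were 13 bins, 0 segments and bands, 2 promoter windows and 3 SMC1A windows. The share over all viewpoints at that threshold was not taken, so these counts are not read as a result. By edgeR on recovered interactions no feature was called either. The intervals limit the size of a difference: for the interferon cluster the log2 difference was -0.00 with a 95% interval of -0.21 to 0.21, for the distal cluster 0.15 (-0.13 to 0.43), and for CDKN2A-CDKN2B 0.11 (-0.22 to 0.43). In the proximal cluster the interval was wider, from -0.40 to 0.72.

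The SMC1A windows with the lowest unadjusted p in this comparison were the overlapping pair of the distal cluster. The window of chr9:21611899-21612299 had 635, 451 and 560 per kb in dTAG+I-BET against 257, 409 and 276 in dTAG, with no overlap (0.82 ± 0.23; limma, adjusted p = 0.21). That of chr9:21616093-21616493 had 629, 504 and 613 against 376, 490 and 303 (0.60 ± 0.20; adjusted p = 0.44). At the MIR31HG promoter the values ran the other way, with 394, 325 and 360 against 424, 509 and 458 at the site chr9:21559611-21560011 (-0.37 ± 0.15; adjusted p = 0.65). 1 SMC1A window was called without DMSO replicate 3 and 1 without dTAG replicate 2.

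Among bins, the lowest unadjusted p for a higher value was that of chr9:21122636-21132635, with 85.9, 117 and 83.2 per kb in dTAG+I-BET and 43.5, 36.1 and 63.1 in dTAG (1.01 ± 0.33; limma, adjusted p = 0.75). The signal of that bin was low and rested on few interactions a library. For a lower value the lowest unadjusted p was that of chr9:21552636-21562635 at the MIR31HG promoter, with 561, 496 and 416 against 658, 702 and 624 (-0.44 ± 0.16; adjusted p = 0.75).

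With both agents, interactions with the interferon cluster and with CDKN2A-CDKN2B were higher than in DMSO. This comparison shares its DMSO libraries with that of dTAG, so that it is no separate support. The interferon cluster had 331, 340 and 346 per kb (0.60 ± 0.09; limma, adjusted p = 0.0029) and CDKN2A-CDKN2B 547, 548 and 486 (0.53 ± 0.15; adjusted p = 0.045), and both passed. The distal cluster had 599, 536 and 641 (-0.35 ± 0.12; adjusted p = 0.089), below all DMSO libraries, and did not pass. The call of CDKN2A-CDKN2B was lost when any of 6 libraries was left out, the exceptions being DMSO replicate 3, dTAG replicate 1 and dTAG replicate 3, and after rescaling (0.30). The bands 250 to 500 and 500 to 750 kb upstream and 100 to 250 kb downstream also passed, which makes 5 of 17, all higher. Over all viewpoints 10.1% of 207 were called, 6.76% higher and 3.38% lower. On bands alone it was 3 of 10 at MTAP and 16 of 190 at the others.

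Of 148 bins, 23 were higher and 1 was lower than in DMSO, where 3.51% of 2960 bins were called over all viewpoints, 2.47% higher and 1.05% lower. Of the 23 higher bins, 17 lay upstream of the distal cluster and 6 downstream. After rescaling, 9 were higher and 11 lower. The count ranged from 6 to 40 when 1 library was left out, with 6 without DMSO replicate 1 and 40 without DMSO replicate 3.

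The largest increases among called bins were chr9:22322636-22332635, with 66.0, 179 and 90.2 per kb against 15.9, 43.4 and 46.9 in DMSO (1.65 ± 0.42; limma, adjusted p = 0.039), and chr9:21482636-21492635 next to IFNE, with 396, 428 and 555 against 231, 122 and 275 (1.20 ± 0.23; adjusted p = 0.0051). The first rested on 2 to 26 interactions a library, and its call ended without DMSO replicate 1 or 2, without dTAG+I-BET replicate 2 or 3, after rescaling and relative to the other viewpoints. The call of the second ended relative to the other viewpoints. The 1 lower bin was chr9:21552636-21562635 at the MIR31HG promoter, with 561, 496 and 416 against 765, 963 and 909 (-0.84 ± 0.16; adjusted p = 0.0042), and its call was kept in all alternatives run for single bins.

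Of the promoter windows, IFNA4 (337, 345 and 333 per kb; 0.91 ± 0.18), IFNA7 (297, 372 and 340; 0.72 ± 0.14), IFNA17 (515, 455 and 548; 1.01 ± 0.15) and IFNE (555, 558 and 541; 0.96 ± 0.13) were higher than in DMSO, and 12 of the 16 interferon windows did not pass. The IFNA7 window overlaps that of IFNA10. MIR31HG, with 343, 269 and 340 per kb, was lower than in DMSO (-0.89 ± 0.17; limma, adjusted p = 0.042). Over all viewpoints 1.46% of 478 windows were called, 1.26% higher and 0.209% lower. None of the 5 calls was left without DMSO replicate 1, dTAG+I-BET replicate 1 or dTAG+I-BET replicate 3, and edgeR on recovered interactions called 16 of 28, against 8.58% of 478. No window of the cell cycle inhibitor locus passed, although in all 3 the groups did not overlap, as in 12.1% of all windows in this direction. CDKN2A had 713, 752 and 693 (0.66 ± 0.22; adjusted p = 0.17), CDKN2B 528, 510 and 596 (0.40 ± 0.18; adjusted p = 0.27) and CDKN2B-AS1 687, 710 and 693 (0.68 ± 0.21; adjusted p = 0.17).

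Of the SMC1A windows, that of chr9:21559611-21560011 at the MIR31HG promoter was lower than in DMSO (-0.84 ± 0.15; limma, adjusted p = 0.0011), and over all viewpoints 16.4% of 177 were called, 4.52% higher and 11.9% lower. This call was kept in all alternatives run. The other 7 lost sites had log2 differences of -0.38 to -0.13 and did not pass, and the gained site chr9:21413723-21414123 had 343, 305 and 247 per kb (0.45 ± 0.18; adjusted p = 0.093).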

How the data were processed

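Per the labels and methods, the authors digested chromatin with DpnII, captured 20 promoters and counted interactions per fragment with CapCruncher on hg38 (base calling with bcl2fastq 2.17 in the submitters' processing notes). The deposited signal is that count, scaled by the authors. MTAP values were whole multiples of the value of 1 interaction (100%, tolerance 0.01), so interactions could be recovered. The methods call replicates biologically independent. Their column labels carry an unexplained "TR", so p-values may measure technical spread.

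Fragments within 10 kb of the start were left out of bins, bands and segments. They were kept in the window of the gained SMC1A site in the MTAP gene, which reaches into that stretch. log2 of signal per kb plus 1 was tested with limma 3.58.1 (R 4.3.3) over all 9 libraries, with Benjamini-Hochberg adjustment over the features of all 20 viewpoints (a call: adjusted p under 0.05). A bin filter of 2 per kb removed none. edgeR 4.0.16 ran on recovered interactions. Exact permutation tests were two-sided. Code ran in Python 3.11.15 with scipy 1.17.1, numpy 2.4.6, matplotlib 3.10.9 and pandas 2.3.3, and was tested on simulated data. Genes of 3 lists, all SMC1A sites and, per comparison, the called bins with the largest changes (with none called, the lowest p) were named. SMC1A positions and directions came from the study's own list. The region, segments and lists were chosen with earlier results of these data known.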

Additional observations from a re-analysis of the deposited data

How the results depend on the processing

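Each result was recomputed with other pseudocounts, filters, bins, windows, margins and scalings, with fits of the compared groups alone, with edgeR, relative to the other viewpoints, and without each library. Of the comparison values, 487 kept their direction and side of the threshold, 70 counts moved by over 1.5 times, 22 values passed newly, 18 no longer passed and 8 changed sign. The cause was not tested. For the single bins and windows named as called, 241 recomputed values kept the call and 105 lost it.

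Between groups, correlations over MTAP bins were -0.21 to 0.37 for same-numbered libraries and -0.36 to 0.31 for libraries of different number. The highest was that of DMSO replicate 3 and dTAG replicate 3. Over the bins of all viewpoints that pair had 0.22, where libraries of different number reached at most 0.11. As the ranges over MTAP bins largely overlapped, the numbers were not taken as pairs. With the replicate number as a block, called bins were 21 in dTAG against DMSO, promoter windows 0 and, with I-BET against DMSO, 2, and in the latter comparison SMC1A windows 3 and bands 5.

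In dTAG against DMSO, called bins were 20 after rescaling and 14 with edgeR, promoter windows 0 after rescaling, in the fit of 2 groups and with 2.5-kb windows, SMC1A windows 1 with 2.5-kb windows, and bands 0 in the fit of 2 groups. In dTAG+I-BET against DMSO, bins were 15 with 5-kb bins, 12 with 25-kb bins and 8 relative to the other viewpoints. Promoter windows were 2 after rescaling and in the fit of 2 groups, 16 with edgeR and 0 with 2.5-kb windows. SMC1A windows were 5 after rescaling and 2 with 10-kb windows, and bands 5 in the fit of 2 groups.

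Without 1 library, counts ranged as follows. In dTAG against DMSO they were 5 to 22 bins, 0 to 7 promoter windows, 1 to 7 SMC1A windows, 0 to 5 bands and 2 to 8 relative bands. In dTAG+I-BET against DMSO they were 6 to 40, 0 to 8, 1 to 3 and 0 to 6 in the same order without relative bands, and in dTAG+I-BET against dTAG 0 to 1 SMC1A windows.

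Among segments in dTAG against DMSO, the interferon cluster (0.60) and distal cluster (-0.50) did not pass in the fit of 2 groups, nor did the distal cluster without margin (-0.48) or with 10 kb (-0.49). The MIR31HG segment (0.33), the MTAP gene body (0.30) and CDKN2A-CDKN2B (0.54) passed relative to the other viewpoints. In dTAG+I-BET against DMSO, the fit of 2 groups and the relative fit gave calls for the MIR31HG segment (0.38 and 0.45), the distal cluster (-0.35 and -0.31), the MTAP gene body (0.41 and 0.25) and the interval from CDKN2B to DMRTA1 (0.41 and 0.44). Rescaling gave a call for the distal cluster (-0.59) and ended that of CDKN2A-CDKN2B (0.30). In dTAG+I-BET against dTAG, uncalled values changed sign relative to the other viewpoints for the interferon cluster (0.0039) and the MTAP gene body (-0.053), and after rescaling for the interval from CDKN2B to DMRTA1 (-0.0052).

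Without 1 library, the log2 differences in dTAG against DMSO ranged from 0.17 to 0.38 for the MIR31HG segment, from -0.58 to -0.40 for the distal cluster, from 0.12 to 0.47 for the MTAP gene body, from 0.32 to 0.60 for CDKN2A-CDKN2B and from 0.22 to 0.47 for the interval from CDKN2B to DMRTA1. In dTAG+I-BET against DMSO the same ranges were 0.31 to 0.51, -0.43 to -0.25, 0.34 to 0.50, 0.48 to 0.61 and 0.32 to 0.57. In dTAG+I-BET against dTAG, uncalled values changed sign over -0.030 to 0.033 for the interferon cluster, -0.056 to 0.27 for the proximal cluster, -0.060 to 0.29 for the MTAP gene body and -0.069 to 0.21 for CDKN2A-CDKN2B, the last 3 without dTAG replicate 3.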
